A study of Mus musculus with 20 samples.

Results

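The genes of the cytosolic ribosomal proteins were followed through the hypothalamus of mice that lack both Magel2 and Ndn (the MADIN double knockout, KO) and of C57BL/6J mice (WT), the double knockout being a model of Prader-Willi syndrome. They were chosen as protein-coding genes whose mouse symbol is Rpl or Rps plus a number, with an optional trailing a, l, x or l1, together with Rplp0, Rplp1, Rplp2 and Rpsa, and with a mean of at least 5 CPM (counts scaled to a common library total) over all libraries. Of 53801 genes counted, 82 met the name rule and 77 also met the minimum, 46 of the large subunit and 31 of the small one. Each of the groups KO_night, WT_night, KO_day and WT_day has 5 libraries, taken 18 h after light on at night and 6 h after it by day, under a cycle of light and dark with food and water freely available. The genotype field of the KO libraries speaks of a knockdown, and the study's design text of a double knockout. The labels give neither the sex or age of the mice nor whether tissue was pooled. Total RNA of the hypothalamus was depleted of ribosomal RNA before sequencing, so the ribosome is seen here through its protein mRNAs and not through its rRNA.

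A ribosome is built from ribosomal RNA and a single copy of nearly every ribosomal protein, so the proteins of both subunits are needed in nearly equal numbers. Their mRNAs are among the most abundant of any cell. Most begin with a run of pyrimidines after a cytosine, the 5′ terminal oligopyrimidine (TOP) motif, through which LARP1 and the kinase mTOR switch their translation on and off together. The mRNA level and the translation of these genes are separate quantities, and the libraries measure the first.

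The starts of 7 members described in the results, for which RefSeq gives a window, show what the family has in common at the DNA level. Each line holds 45 bases of the sense strand of GRCm38.p6, from 30 before the annotated start to 15 after it, with the pyrimidine words CTTTC and CTTCC in capitals where they lie within 20 bases of the start. In Rplp2 both words overlap.
Rplp2: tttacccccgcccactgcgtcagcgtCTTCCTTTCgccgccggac
Rps18: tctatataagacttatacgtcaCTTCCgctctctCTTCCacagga
Rps27: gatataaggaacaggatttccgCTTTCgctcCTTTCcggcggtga
Rps27l: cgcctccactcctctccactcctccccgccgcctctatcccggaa
Rpl22l1: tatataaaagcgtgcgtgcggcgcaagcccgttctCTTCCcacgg
Rpl13a: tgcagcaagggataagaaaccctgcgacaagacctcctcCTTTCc
Rps6: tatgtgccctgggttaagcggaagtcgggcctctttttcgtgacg
In Rplp2 (chr7:141447621-141447665, plus strand) and Rps18 (chr17:33955651-33955695, minus strand) a pyrimidine word lies within a few bases of the start. The same holds for Rpl22l1 (chr3:28805478-28805522, plus strand). In Rpl13a (chr7:45128731-45128775, minus strand) the word lies farther after the start, near the end of the printed bases. Rps27 (chr3:90213634-90213678, minus strand) has such words before and at its start, while the window of its close relative Rps27l (chr9:66946056-66946100, plus strand, the first of its annotated starts) has neither word, and nor does that of Rps6 (chr4:86857353-86857397, minus strand). From its annotated start on, Rps6 nevertheless has an unbroken run of pyrimidines, so a window without these words can still hold such a run. Of the 57 members with a window CTTTC lay within 20 bases of an annotated start in 29.8%, against 6.39% of 26968 other genes, and CTTCC in 26.3%, against 10.3%, on the sense strand. On either strand of the window from 250 bases before to 50 after the start, the letters CCGGAA, the core of sites for ETS-family factors, stood in 57.9% of members and 16.6% of other genes. AAGATGGC, the word read by YY1, stood in 10.5% and 3.17%, the GC box GGGCGG in 63.2% and 38.2%, and TATAAA in 12.3% and 15.7%. The reverse complement of CCGGAA followed by G begins with CTTCC, so those words can overlap. These are matches of letters at annotated starts, and 20 members have no window.

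Counts per member and library ran from 165 to 18240, out of library totals of 32066289 to 48697647, and the lowest counts are those of Rpl13a. Levels are given in CPM scaled by TMM factors, and "rose" or "fell" is used only of genes that passed an adjusted p under 0.05 in edgeR. Ndn, a deleted gene, stood between 0.248 and 1.01 CPM in the KO libraries and between 239 and 346 CPM in 9 WT libraries. The library labelled WT_day 3 went against its label with 31.0 CPM, so each direction drawn from WT_day is also given without it where that matters. In 6 libraries (KO_night 1, 2 and 3, WT_night 1, and KO_day 1 and 2) the time field contradicts the title from which time was taken. The libraries whose labels agree are 2 of KO_night, 4 of WT_night, 3 of KO_day and 5 of WT_day. A list of 20 hypothalamic markers, of which 19 were tested, holds Oxt, Pomc and Agrp. Together the 20 summed to between 1211 and 1439 CPM in KO_night and 887 and 1181 in WT_night. By day they summed to between 1156 and 1402 CPM in KO_day and 1095 and 1267 in WT_day. Whether each library is 1 animal is not stated, so p-values describe only how much these libraries vary, which may be technical.

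The members covered a wide range of levels. The most abundant per kilobase of annotated exon was Rplp1, an acidic protein of the stalk that recruits elongation factors, at 392 CPM per kb. Rps15 followed at 215, Rpl36 at 208, Rps29 at 179 and Rpl41, the smallest protein of the ribosome, at 154 CPM per kb. The lowest were Rpl13a at 2.54, Rpl7l1 at 8.98, Rps27l at 10.9, Rpl22 at 13.8 and Rps15a at 16.98 CPM per kb. The highest exceeded the lowest 154-fold, and 43.6-fold without Rpl13a, whose count is uncertain. When the shortest principal transcript was used as the length, a choice made after the values were seen, the ratios were 80.2 and 23.2 and Rps15a moved to 21st of 77. Between the 10th and the 90th percentile members then differed 4.12-fold in level per kb.

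Reads of these genes are hard to assign. The family has many processed copies in the genome, and 59 of the 77 have at least 1 named pseudogene in GENCODE M21, 289 in all. Together these carried 283 CPM, which is 3.72% of the 7610 CPM of the members. The highest sums were those of pseudogenes named for Rpl3 (39.8 CPM), Rpl14 (28.8 CPM) and Rpl17 (26.7 CPM). A median of 57.4% of the 50-base stretches of a member's transcript recurred in the transcripts of other genes, with 98.7% in Rps27 and 93.8% in Rpl5. Whether the counting used strand is not given in the sources used here. Rpl13 and Rpl24, proteins of the large subunit, had a mean of 0 and 0.1 counts per library, and each lies within or across an annotated gene of the same strand (Gm20388 and Gm28037). Rpl23a had 3308 counts on average and Tlcd1 on the opposite strand 3329, with a ratio of 0.981 to 1.03 in every library. The low values of Rpl13, Rpl24 and Rpl13a are therefore reported as uncertain, as is any split between Rpl23a and Tlcd1, and none is described as a low level of expression. In all, 25 members overlap another gene, 23 of them one on the opposite strand. No gene that missed the minimum was near it. Rpl3l, the striated muscle paralog of Rpl3, stood at 0.182 CPM, Rpl39l at 0.0221 and Rpl10l, a testis paralog, at 0 counts in all 20 libraries. The lowest members inside the minimum were Rpl13a at 5.37 and Rps27l at 8.85 CPM.

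Within 28 members lie 56 annotated small nucleolar RNAs, which guide the chemical modification of rRNA. None of these had a count in any library.

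The members moved as a block from library to library. Across the 20 libraries the correlation of a member with the mean of the other 76 had a median of 0.93 and was at least 0.9 in 55 of 77. Taken less the group means it also had a median of 0.93, so libraries of 1 group also differed in this shared way. Among the highest values were 0.98 in Rpl37 and in Rps6 (the target of S6 kinase). Of the 77, 5 members were under 0.8, and the lowest were 0.09 in Rps29, 0.55 in Rps27a and 0.64 in Rpl13a. All these values share the scaling of 1 library total. Because the members moved together, a count of members in 1 direction below is not a count of separate observations. Fau and Rack1 are ribosomal proteins outside the name rule. Rps4l has a symbol of that form but is not among the protein-coding genes that the rule took. These 3 correlated with the members' mean with a median of 0.92. The median was 0.78 over 25 other TOP mRNAs and 0.64 over 75 mitochondrial ribosomal proteins. Translation factors without a TOP motif stood at 0.57, genes of ribosome biogenesis at 0.38, and mTOR and LARP1 pathway genes at -0.15. The summed levels of the other TOP mRNAs and of the mitochondrial ribosomal proteins each had r = 0.91 with the members' median deviation. Those values are a description across libraries, and their differences were not tested.

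**Figure D1:**
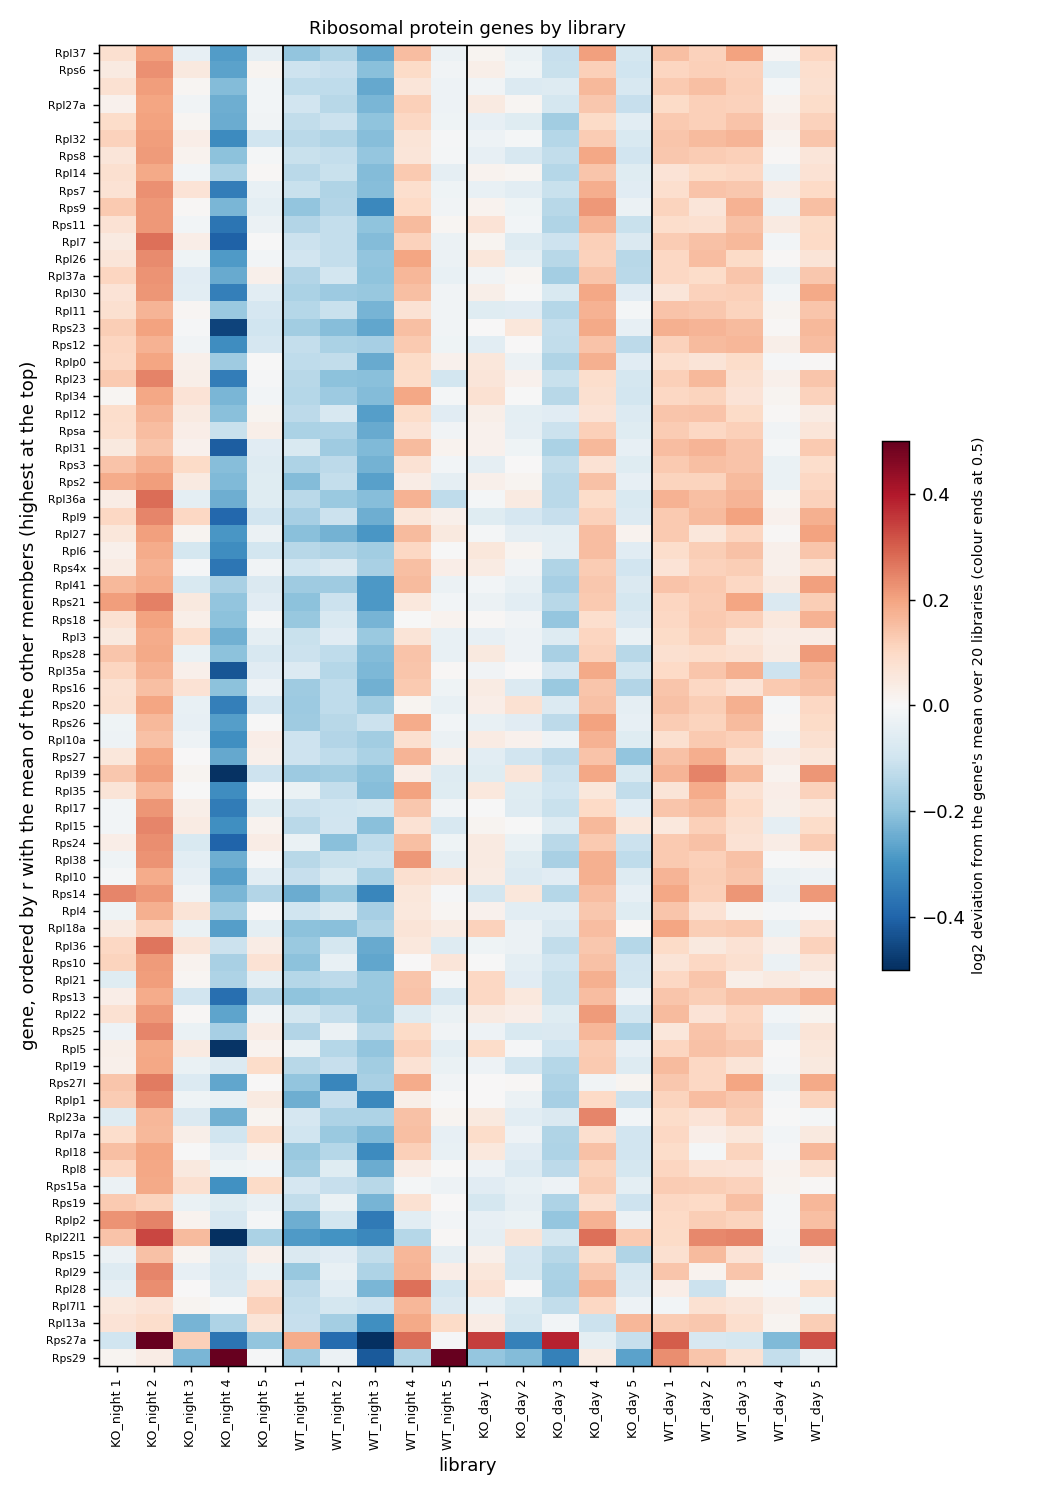
Deviation of each of the 77 ribosomal protein genes (rows, ordered by their correlation with the mean of the others) from its own mean over 20 libraries (columns, in 4 groups of 5), on the log2 scale. Rows without a name are not reported by gene. Most columns have 1 colour from top to bottom, with KO_night 2 and KO_day 4 high and KO_night 4 and WT_night 3 low, and Rps27a and Rps29 at the foot go their own way.

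Summed over the 77 genes the level was 7950, 8715, 7629, 6507 and 7478 CPM in KO_night, against 6901, 6967, 6523, 8111 and 7629 CPM in WT_night. By day it was 7617, 7408, 7001, 8331 and 7195 CPM in KO_day, against 8231, 8242, 8216, 7584 and 8097 CPM in WT_day. The groups overlap in each comparison, and libraries of 1 group spread widely. The members' sum averaged 7656 ± 800 CPM in KO_night, 7226 ± 635 in WT_night, 7511 ± 513 in KO_day and 8074 ± 280 in WT_day (SD, n = 5 each). WT_day was the group with the highest mean in 71 of 77 members, and WT_night the group with the lowest in 73. Over all 22181 genes tested, WT_day was highest in 22.2% and WT_night lowest in 28.6%. In bulk tissue, fewer cells of a kind rich in these mRNAs and less RNA per cell cannot be told apart.

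The level moved with a measure of the library. Mitochondrial rRNA, which the depletion left in part, made up 14.99% to 22.0% of counts in KO_night, 18.4% to 22.1% in WT_night, 19.5% to 22.6% in KO_day and 19.6% to 21.7% in WT_day. KO_night 4, which had the lowest sum of members (6507 CPM), had the lowest share (14.99%), and KO_day 4, with 8331 CPM, had the highest (22.6%). Over the 20 libraries the members' median deviation and that share had r = 0.82 (Spearman's rho = 0.86), and r = 0.79 without the 2 libraries farthest from the median share. Less the group means r was 0.90. Both are shares of 1 total per library. For the slope of a library's deviations on gene length r was -0.35 (0.01 less group means), and for the library total 0.22. Per doubling of length that slope ran from -0.0199 to -0.0030 in WT_day and 0.0015 to 0.01 in WT_night, without overlap. It ran from -0.0052 to 0.0086 in KO_day and -0.0066 to 0.0098 in KO_night. The median exonic length was 1830 bases in members and 3271 in tested genes. Summed microglial markers had r = 0.67 (0.81 less group means), hypothalamic markers 0.56 (0.69), and markers of thalamus, cortex and striatum -0.56 (-0.65). These are the marker lists with the largest r in size, and the others ran from -0.02 (endothelium) to 0.44 (blood). Microglial markers summed to 244 to 270 CPM in KO_night, 242 to 264 in WT_night, 238 to 264 in KO_day and 247 to 258 in WT_day. The part of mitochondrial rRNA and of these cell types in the results below was not tested.

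**Figure D2:**
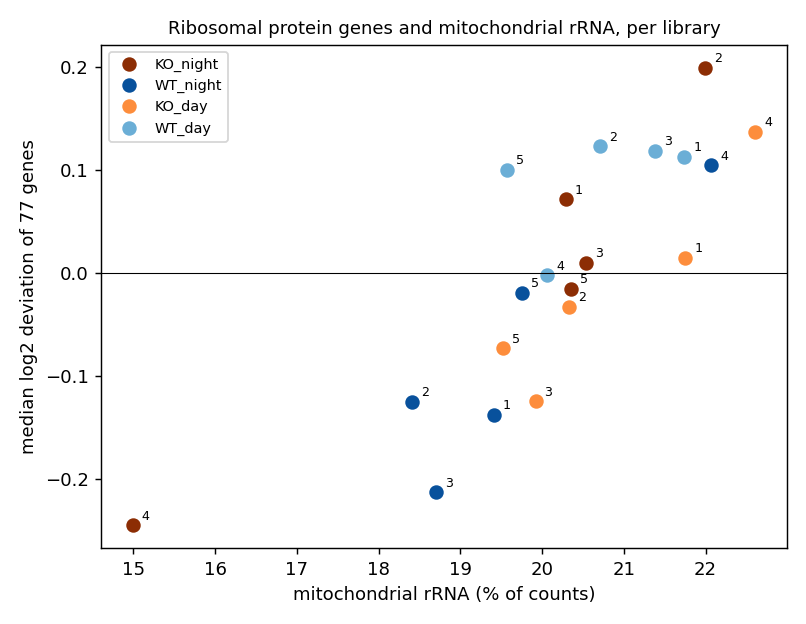
Median log2 deviation of the 77 genes in each library (vertical axis) against the share of its counts from mitochondrial rRNA (horizontal axis, percent), with replicate numbers beside the points and colours for the 4 groups. KO_night 4, at 14.99% and -0.24, is alone at the lower left, and the other libraries follow a rising band.

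Does the loss of Magel2 and Ndn change these genes by day? No member passed in KO_day against WT_day, where 25 of 22181 genes tested did (0.113% of genes). The values were lower in KO_day for 75 of 77 members, with a median log2 change of -0.11, beside -0.01 over all genes, of which 52.2% were lower. At an unadjusted p under 0.05, 8 members were lower and none higher, while 4.29% of all genes were lower at that level. The smallest p was that of Rps19, a protein of the small subunit whose mutation causes Diamond-Blackfan anaemia in people. Rps19 stood at 78.9, 81.5, 75.5, 88.7 and 78.2 CPM in KO_day, against 90.2, 89.9, 93.1, 83.5 and 94.1 CPM in WT_day. KO_day 4 and WT_day 4 cross the line between the groups. The log2 change of Rps19 was -0.16 ± 0.057 (SE, adjusted p = 0.309). Rps18, which sits on the head of the small subunit, was at -0.15 ± 0.063 (adjusted p = 0.433). Rps16 was at -0.16 ± 0.070 (0.463). With the time field in place of the title the median was -0.01, 53 of 77 members were lower and none had an unadjusted p under 0.05. Without the library labelled WT_day 3 the median was -0.09 and no member passed. Pituitary markers, a sign of the neighbouring gland, were lower in KO_day in 7 of 8 genes of that list with none passing, and summed to 14.1 to 51.4 CPM in KO_day against 23.0 to 785 CPM in WT_day. Their part in the result was not tested.

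At night Rplp2 rose in KO_night and was the only member to pass, although 2649 genes did (11.9% of genes). That background was 6 genes (0.0263%) with only the agreeing libraries, 4 (0.0179%) with the time field, 11 without WT_night 1, 2 and 3 and 31 without KO_night 1, 2 and 3. It was 122 without WT_night 3, 286 without WT_night 1, 295 without KO_night 2 and 512 without KO_night 3. Higher values in KO_night were found for 76 of 77 members, with a median log2 change of 0.08, beside 0.01 over all genes, of which 51.0% were higher. At an unadjusted p under 0.05, 11 members were higher and none lower, and 14.5% of all genes were higher at that level; the members' share was close to this. Rplp2 (chromosome 7, 141447370 to 141451585 in GRCm38, plus strand) encodes a stalk protein that pairs with Rplp1. Its level was 70.4, 71.6, 61.0, 56.9 and 59.9 CPM in KO_night, against 50.9, 56.6, 47.1, 58.1 and 59.7 CPM in WT_night. KO_night 1 and 2 are the high ones, WT_night 1 and 3 the low ones, and the other 6 libraries lie between and overlap. Rplp2 rose by 0.23 ± 0.072 on the log2 scale, or 1.18-fold (adjusted p = 0.0377). By day it had 58.6, 58.9, 52.8, 67.9 and 59.1 CPM in KO_day, against 64.6, 65.5, 65.1, 59.9 and 66.8 CPM in WT_day, where KO_day 4 and WT_day 4 cross.

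Its partner Rplp1 had 212, 229, 192, 190 and 201 CPM in KO_night, against 164, 180, 156, 199 and 194 CPM in WT_night, with a log2 change of 0.20 ± 0.066 (adjusted p = 0.0532). KO_night 3 and 4 lie under the highest of WT_night. The other stalk protein, Rplp0, which anchors both pairs, was at 0.11 ± 0.069 (adjusted p = 0.308). Rpl36 had 85.2, 95.4, 82.5, 73.6 and 81.3 CPM in KO_night, against 69.6, 74.5, 66.6, 82.3 and 75.7 CPM in WT_night, and was at 0.18 ± 0.063 (0.0605). Rpl8, a core protein near the peptidyl transferase centre, was at 0.15 ± 0.056 (0.0786). With the 14 libraries whose time labels agree, only 2 of KO_night, among them KO_night 4, stand against 4 of WT_night. There the median of the members was -0.07, with 65 of 77 lower, and Rplp2 stood at 0.08 (adjusted p = 0.789). Rplp2 also missed the threshold without any 1 of KO_night 1, 2 and 3 (adjusted p = 0.0934, 0.133 and 0.0671), WT_night 1, 2 and 3 (0.105, 0.0504 and 0.140) or KO_day 5 (0.0501). Without KO_night 4, 15 members rose (4252 of all genes passed, 19%). Without WT_night 4, 8 rose (4355 genes, 19.5%), and without WT_night 5, 2 rose (2134 genes, 9.53%). In these 3 refits the members' share was close to that of all genes or under it. Markers of thalamus, cortex and striatum summed to 355 to 480 CPM in KO_night, against 428 to 699 CPM in WT_night. By gene, 7 of these 12 were higher and 5 lower in KO_night, with a median log2 change of 0.08, and Rora fell. Of 19 hypothalamic markers 4 rose. The part of both lists in the result was not tested.

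**Figure D3:**
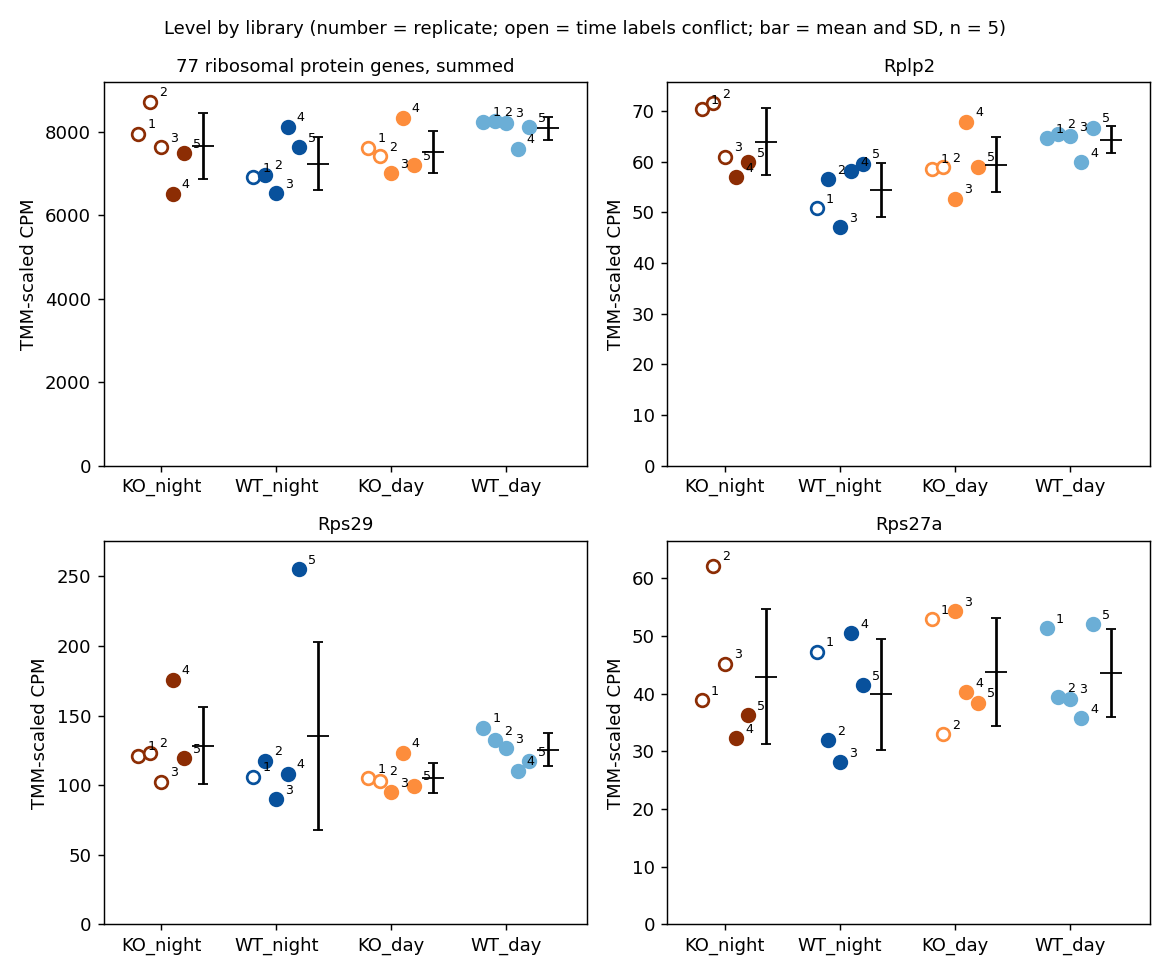
TMM-scaled CPM by library for the sum of 77 genes, Rplp2, Rps29 and Rps27a, with KO_night, WT_night, KO_day and WT_day from left to right. Numbers are replicates, open circles mark the 6 libraries whose time labels conflict, and bars give the mean and SD (n = 5). Rplp2 is highest in KO_night 1 and 2, both open, and Rps29 stands at 255 CPM in WT_night 5.

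Averaged over both times no member passed (293 genes did, 1.32% of genes), and none had an unadjusted p under 0.05, while 19.6% of all genes did. DESeq2 also called no member, and 1052 of 17042 genes (6.17%). The median log2 change of the members was -0.01, 50 of 77 were lower, and the lowest adjusted p was 0.525. With only the agreeing libraries the median was -0.10, 76 of 77 were lower and 8 had an unadjusted p under 0.05. Without KO_night 1, 2 and 3 it was -0.08, with 13 at that level, and without WT_night 1, 2 and 3 -0.07, with 3. The share of all genes at that level was taken only in the fit as reported (19.6%), so these refit counts have no background. Rps29 was at -0.17 ± 0.14, Rplp2 at 0.06 ± 0.050, Rps27 at -0.06 ± 0.052 and Rpl17 at -0.06 ± 0.051, with adjusted p of 0.525 to 0.569 over these 4.

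Do the members follow the time of day in WT? None passed, where 61 genes did (0.275% of genes), but this was the comparison with the lowest median. WT_night was lower than WT_day in 76 of 77 members, with a median log2 change of -0.16, or 0.894-fold, beside 0.00 over all genes, of which 48.6% were lower. At an unadjusted p under 0.05, 50 members were lower and none higher, while 8.13% of all genes were lower at that level. The count of 50 was 38 in the agreeing libraries alone, where 76 of 77 members were lower and the median was -0.15. That count was 4 with the time field (median -0.12) and 1 without WT_night 1, 2 and 3. The share of all genes at that level was not taken in these refits. Rplp1 had 164, 180, 156, 199 and 194 CPM in WT_night, against 210, 217, 214, 194 and 210 CPM in WT_day. WT_night 4 and 5 reach the lowest of the day, and the other 3 are well under it. The log2 change of Rplp1 was -0.23 ± 0.066 (adjusted p = 0.127).

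Rplp2 was at -0.24 ± 0.071 (adjusted p = 0.127) and Rps18 at -0.21 ± 0.063 (0.132). Rps18 had 60.2, 65.1, 58.4, 68.6 and 69.4 CPM in WT_night, against 73.7, 75.1, 74.6, 71.2 and 77.3 CPM in WT_day, with no overlap. Rplp2, Rps18, Rpl22 and Rps15a were the 4 members whose groups did not overlap. Over all genes 5.32% did not overlap, which is near the members' share. Among members Rpl22l1 had the largest change. It is a paralog of Rpl22 and had 41.7, 41.2, 40.6, 46.0 and 50.9 CPM in WT_night, against 54.2, 59.9, 60.2, 50.2 and 60.0 CPM in WT_day, and its log2 change was -0.37 ± 0.11 (adjusted p = 0.138). Markers of thalamus, cortex and striatum summed to 428 to 699 CPM in WT_night, against 492 to 530 CPM in WT_day, and 8 endothelial markers to 179 to 194 CPM in WT_night, against 166 to 170 CPM in WT_day, without overlap. Their part was not tested. The slope on gene length did not overlap between WT_night and WT_day either. After a length correction 34 members had an unadjusted p under 0.05, 76 of 77 were lower and the median was -0.14. The share of all genes at that level was not taken there either. Without WT_night 1, 2 and 3 the median over members was -0.05, and without the library labelled WT_day 3 it was -0.15. Without KO_night 4, which enters only through the shared spread and scaling, Rpl22l1 and Rpl39 passed (179 of all genes did, 0.801%). DESeq2 called Rplp1, and 387 of 17766 genes (2.18%).

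For KO_night against KO_day the groups of every member overlapped, and 2.51% of all genes did not overlap. No member passed (16 genes did, 0.0721% of genes), and none had an unadjusted p under 0.05, while 9.18% of all genes were higher at that level. DESeq2 called no member either, and 581 of 14874 genes (3.91%). The median log2 change was 0.03, with 51 of 77 members higher. Rpl8 was at 0.10 ± 0.056, Rpl36 at 0.11 ± 0.063, Rplp1 at 0.11 ± 0.066 and Rpl7l1 at 0.08 ± 0.052, with adjusted p of 0.349 to 0.431 over these 4. The sign turned in several refits, to a median of -0.10 with only the 14 libraries whose labels agree, -0.11 with the time field in place of the title and -0.11 without KO_night 1, 2 and 3. Without KO_night 2 alone it was -0.03, with 58 of 77 lower, and without KO_day 3 alone -0.0029.

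The difference between the KO effects at night and by day was tested as the interaction of genotype and time. No gene passed (0 of 22181, 0%), and no member. DESeq2 called 1223 of 15596 genes with an adjusted p and 4 members (Rplp1, Rplp2, Rpl8 and Rpl36). All 77 members had positive values, with a median of 0.18, beside 0.00 over all genes. At an unadjusted p under 0.05, 27 members were higher, and 10.6% of all genes were. The smallest adjusted p were 0.0733 for Rplp1 (0.34 ± 0.094), 0.0803 for Rplp2 (0.35 ± 0.10), 0.0894 for Rpl36 (0.29 ± 0.089) and 0.0896 for Rpl8 (0.26 ± 0.080). This term is built from the same 4 groups as the comparisons above, so its values are not further evidence beside theirs. With the time field in place of the title the median was 0.00, and with only the agreeing libraries 0.03. Without KO_night 4, 18 members passed (1511 of all genes, 6.76%), 6 without WT_night 4 (1555 genes, 6.95%) and 4 without KO_day 4 (717 genes).

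**Figure D4:**
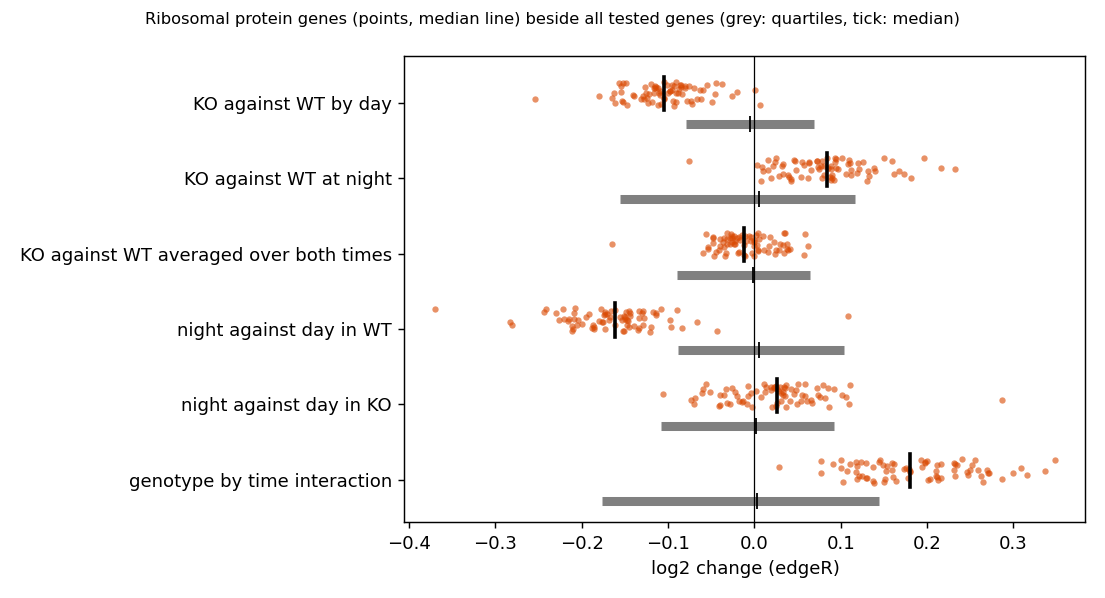
Log2 change of each of the 77 genes (points, with their median as a black line) in 6 contrasts, beside the quartiles (grey bar) and median (tick) of all 22181 genes tested. The members' medians are -0.11 by day, 0.08 at night, -0.16 for night against day in WT, 0.03 for the same in KO, and the points lie mostly on 1 side of 0 in the first 3 of these and in the interaction.

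Medians of both subunits were close. Proteins of the large subunit had a median log2 change of -0.09 and those of the small subunit -0.11 in KO_day against WT_day. The values were 0.08 and 0.09 in KO_night against WT_night, and -0.15 and -0.17 in WT_night against WT_day. The 28 members with a small nucleolar RNA inside were at -0.17 in this last comparison and the other 49 at -0.15. The 25 members that overlap another gene were at -0.15 and the 52 that do not at -0.17. Members with at least 50% of their 50-base stretches found elsewhere (49 genes) were at -0.16 and the other 28 at -0.17. In KO_night against WT_night each of these splits gave medians between 0.07 and 0.09. These splits were chosen after the data were seen and carry no test.

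Several members are paralogs. Rps27 averaged 85.2 ± 9.4 CPM in KO_night, 82.5 ± 8.0 in WT_night, 80.8 ± 7.5 in KO_day and 90.6 ± 3.9 in WT_day. Rps27l, which p53 induces, averaged 8.97 ± 1.2 CPM in KO_night, 8.27 ± 1.2 in WT_night, 8.64 ± 0.41 in KO_day and 9.58 ± 0.60 in WT_day. For Rpl22 and Rpl22l1 the WT_night against WT_day changes were -0.17 ± 0.067 and -0.37 ± 0.11. The WT_night values of Rpl22, 37.6, 36.7, 34.9, 38.1 and 38.9 CPM, all lay under its WT_day values of 44.5, 41.8, 43.0, 39.6 and 40.2 CPM. Rpl7 stood at -0.17 ± 0.083 in that comparison and Rpl7l1, which is thought to act in ribosome assembly, at -0.07 ± 0.052, and neither passed (adjusted p = 0.309 and 0.549). The differences between paralogs were not tested. Rpl7l1 lies opposite Gm26904, whose counts were higher than its own, so its level is uncertain. The level of Rpl22l1, opposite Gm33051, is uncertain as well.

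The members least like the others were Rps29, Rps27a and Rpl13a. Rps29, a small protein that binds zinc, had 121, 123, 102, 176 and 120 CPM in KO_night and 106, 118, 89.9, 108 and 255 CPM in WT_night. By day it had 105, 103, 95.1, 124 and 99.7 CPM in KO_day and 141, 132, 127, 110 and 117 CPM in WT_day. WT_night 5 and KO_night 4 stand far above the rest, and no other member was highest in WT_night. Its change in KO_night against WT_night was -0.08 ± 0.19 (adjusted p = 0.821), and without WT_night 5 it was 0.28 ± 0.11 (adjusted p = 0.106). Rps27a, which is made as a fusion with ubiquitin, ranged from 28.1 CPM in WT_night 3 to 62.2 CPM in KO_night 2. It spread about as widely inside each group, with 43.0 ± 12 CPM in KO_night, 39.9 ± 9.7 in WT_night, 43.8 ± 9.4 in KO_day and 43.6 ± 7.6 in WT_day, and its group means did not differ beyond that spread. Rpl13a, known for a role in silencing inflammatory mRNAs outside the ribosome, averaged 5.24 ± 0.53 CPM in KO_night, 5.16 ± 0.73 in WT_night, 5.35 ± 0.42 in KO_day and 5.72 ± 0.19 in WT_day.

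Other members also have roles outside the ribosome. Rpl5 and Rpl11, which together bind MDM2 when ribosome assembly fails, were at -0.15 ± 0.084 and -0.19 ± 0.066 in WT_night against WT_day (adjusted p = 0.397 and 0.170). Rps6 averaged 160 ± 19 CPM in KO_night, 151 ± 12 in WT_night, 156 ± 11 in KO_day and 166 ± 7.9 in WT_day. Rpsa, also known as a laminin receptor, was at 0.14 ± 0.059 in KO_night against WT_night (adjusted p = 0.117).

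Genes that make or use ribosomes, given as lists chosen with earlier results of these data known, were set beside the members. Of a list of genes outside the members, 3 could be tested: Fau and Rack1, and Rps4l, which is not among the protein-coding genes of the rule. All were higher in KO_night than in WT_night (0.13 ± 0.066, 0.15 ± 0.064 and 0.22 ± 0.075). None passed (adjusted p = 0.175, 0.124 and 0.0570). Of 25 other TOP mRNAs, 2 rose in KO_night and 23 were higher, with a median of 0.09. They were Eef2, the elongation factor that moves the ribosome along (766 ± 35 CPM in KO_night and 662 ± 52 CPM in WT_night, 0.21 ± 0.058, adjusted p = 0.0260), and Eef1d (0.16 ± 0.042, 0.0225). Of 31 translation factors without a TOP motif 7 rose at night, among them Eif2b5, a subunit of the exchange factor for eIF2 (35.9 ± 2.0 CPM in KO_night and 31.2 ± 1.4 CPM in WT_night, 0.20 ± 0.049, adjusted p = 0.0191). Eef1a2, the elongation factor of mature neurons, rose as well (0.20 ± 0.061, 0.0358). By day no gene of these lists passed, and the medians were -0.05 for the other TOP mRNAs and -0.01 for the factors without a TOP motif.

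Of 42 genes of ribosome biogenesis and the nucleolus 7 rose in KO_night, with a median of 0.07 over the list. Rrp9, which binds the U3 RNA that guides rRNA cleavage, had the smallest p (10.96 ± 0.99 CPM in KO_night and 8.60 ± 0.69 CPM in WT_night, 0.35 ± 0.079, adjusted p = 0.0160). Nop2, Bop1, Polr1c (a subunit shared by RNA polymerases I and III), Nolc1, Nop56 and Rrp1 followed. In WT_night against WT_day 1 gene of that list, Grwd1, fell and 37 of 42 were lower, with a median of -0.09. Mitochondrial ribosomal proteins, encoded in the nucleus for a separate ribosome, were also measured. Of 75 tested, 9 rose and 2 fell in KO_night, and 72 were lower in WT_night than in WT_day, with medians of 0.12 and -0.11. The 2 that fell were Mrps28 (-0.32 ± 0.085, adjusted p = 0.0251) and Mrpl1 (-0.19 ± 0.052, 0.0250). Of 22 hosts of small nucleolar RNAs, 21 were lower in WT_night than in WT_day, with a median of -0.15 and none passing. Of 29 genes of the mTOR and LARP1 pathway none passed in any of the 6 contrasts, and the medians were 0.00 by day and 0.01 at night. All these counts at night stand beside the 11.9% of all genes that passed there in either direction. Over the 22181 genes tested, 1148 rose and 1501 fell in KO_night. Of all genes 6 passed with the agreeing time labels, 4 with the time field and 122 without WT_night 3.

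**Figure D5:**
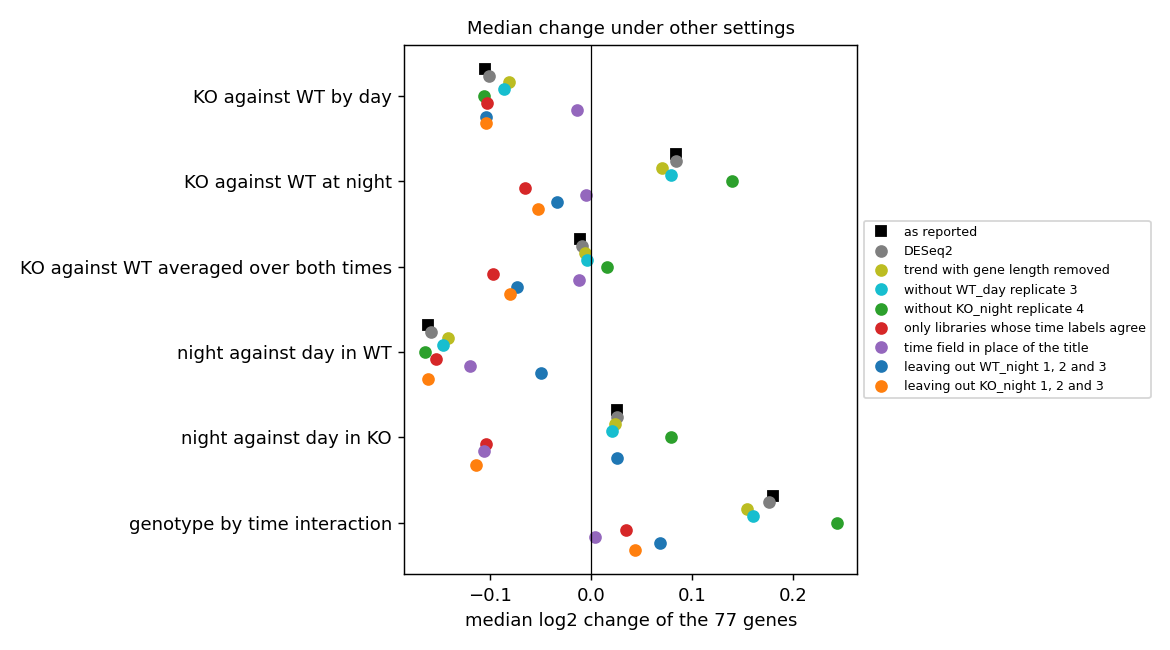
Median log2 change of the 77 genes (horizontal axis) in 6 contrasts, as reported (black squares) and under 8 other settings (coloured circles). The median by day, -0.11 as reported, is at -0.01 with the time field and between -0.11 and -0.08 under the other 7, and that at night, 0.08 as reported, is at -0.07, -0.05, -0.03 and 0.00 under the 4 settings that drop or move libraries by their time labels or leave out 3 of the night libraries.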

How the data were processed

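Hypothalamic total RNA was depleted of rRNA and sequenced as 20 paired-end libraries, 5 per group. Each library's table holds raw read counts by gene identifier, which the authors made with HISAT2 and featureCounts on mm10, per the submitters' processing notes, with versions, annotation and strand setting not given in the sources used here. The deposited file of WT_night 3 is separated by tabs and also holds raw counts. Of 53801 identifiers 53706 matched GENCODE M21 (GRCm38), which gave symbols and lengths. Group and time follow the titles. KO_day 5 takes its time from the time field, and WT_day 5 repeats a title number and was given the missing one. No 2 libraries of a group were alike beyond counting error (chi-square per degree of freedom at least 5.58).

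Genes were tested with edgeR 4.0.16 in R 4.3.3 (quasi-likelihood F-test, TMM factors of 0.945 to 1.08, filterByExpr at 10 counts, which kept 22181 genes and all 77 members), with 4 group means in 1 fit to 20 libraries and Benjamini-Hochberg adjustment over all genes. The fit was tested on simulated counts. Alternatives were DESeq2 1.42.0, other scaling, no filter, a length correction, other time labels, left-out libraries and a replicate block. Members, lists and tests were chosen with earlier results of these data known. Named members are the 4 with the smallest p in each contrast or those that passed, the 5 highest and lowest per exonic length, paralogs by symbol, the extremes of correlation and those at the CPM minimum. Rpl5, Rpl11, Rpsa, Rplp0, the Rps29 and Rplp2 follow-ups and the genes used to describe overlaps were otherwise chosen after their values were seen. A few genes chosen in this way are not reported here. Promoter windows are RefSeq's for GRCm38.p6.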

Additional observations from a re-analysis of the deposited data

Results flagged for a closer look

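A search for single libraries that stand apart from the other 4 of their group (Dixon's test) over 22 named members and the members' sum, 92 tests in all, marked 8, and chance marks about 1 in 20. The members' summed level in WT_day 4 was 7584 CPM, against 8097 to 8242 CPM in the rest of WT_day, and Rps6 (152 CPM, against 167 to 171 CPM) was low in that library. KO_day 4 was high for Rps15a (116 CPM). WT_night 4 was high for Rpl7l1 (35.2 CPM) and Rps15 (152 CPM). Rps27l was low in KO_day 3 (7.92 CPM). Rps29 was high in KO_night 4 (176 CPM, against 102 to 123 CPM) and in WT_night 5 (255 CPM, against 89.9 to 118 CPM).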

How the results depend on the processing

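Over 30 alternatives no count of members that passed moved from 0 in KO against WT by day, averaged over both times, or for night against day in KO, but the median by day was -0.0137 with the time field. For KO against WT at night the count of 1 became 4 with library totals (9.04% of all genes passed) and 4 with DESeq2 (3514 of 18489 genes), and 0 with only the agreeing libraries, with the time field, without WT_night 1, 2 and 3 or without KO_night 1, 2 and 3. It ran from 0 to 15 when 1 library was left out, and where it was 15, 19% of all genes passed. All genes that passed numbered 6, 4, 11 and 31 in those 4 refits. The median there became -0.0654 with the agreeing libraries, -0.0338 without WT_night 1, 2 and 3 and -0.0527 without KO_night 1, 2 and 3. For night against day in WT 1 member passed without KO_night 1, 2 and 3 (0.53% of all genes did) and 1 with DESeq2 (2.18%). With 1 library left out 0 to 2 passed, and where it was 2, 0.801% of all genes did. For night against day in KO the median became -0.10 with the agreeing libraries, -0.11 with the time field and -0.11 without KO_night 1, 2 and 3. For the interaction 4 members passed with library totals and 4 with DESeq2, and 0 to 18 with 1 library left out, and its median became 0.0342 with the agreeing libraries, 0.00371 with the time field and 0.0432 without KO_night 1, 2 and 3. The cause was not tested. Of the 24 results that name a member for its small p, 7 of 720 refits changed sign. These were Rplp2 averaged over both times (-0.0129 with the agreeing libraries, -0.0064 without KO_night 1, 2 and 3), Rps29 averaged over both times (0.0177 without WT_night 5, the range with 1 library left out being -0.236 to 0.0177), and in KO night against day Rplp1 (-0.0407), Rpl8 (-0.0784), Rpl7l1 (-0.0167) and Rpl36 (-0.0874) with the time field. Replicate numbers do not pair the libraries (median r of -0.01 over 30 same-numbered pairs, and 4 of 20 libraries correlated best with their own number). A replicate block left 1 member at night and none elsewhere. Rpl13a, with as few as 165 counts in a library, is the member that depth limits most.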
